A study of Mus musculus with 6 samples.

Results

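Mesothelial cells, the flat cells of the capsule that covers the liver, were picked from single-cell RNA libraries of 6 mouse livers by a marker rule. The rule kept a barcode with at least 300 genes, at least 500 UMIs (unique molecular identifiers, each a counted transcript molecule) and at most 30% mitochondrial UMIs. It then asked for at least 2 of 6 transcripts (Msln, Upk3b, Upk1b, Lrrn4, Wt1 and Gpm6a), with Msln or Upk3b among them. A barcode was dropped if it held any UMI of Epcam, Clec4f, Timd4 or Cd79a, or over 1 UMI summed over Stab2, Clec4g and Reln, which mark other liver cells. This left 177 mesothelial cells of 38697 kept barcodes. All the mice were wild-type males whose inferior vena cava had been partially ligated (pIVCL) at 8 to 10 weeks of age, a model of congestive liver disease. Osmotic pumps placed 2 weeks after ligation gave either the vehicle DMSO or CWHM-12, an inhibitor of all αV integrins, at 100 mg/kg/day, and the livers were taken 4 weeks after the treatment began. Each group had 3 libraries, in 2 labelled batches. Batch 2024.6 held DMSO 1, DMSO 2 and CWHM-12 1, and batch 2024.12 held DMSO 3, CWHM-12 2 and CWHM-12 3. No library came from an unligated mouse, so all values describe ligated livers. The labels name no individual mice, so p-values between libraries measure the spread between libraries, which may be technical.

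Mesothelium is an epithelium of mesodermal origin that lines the body cavities and the organs within them. Its cells carry keratins and apical microvilli like an epithelium, vimentin and matrix genes like a mesenchyme, and a slippery surface coat of mucins, proteoglycans and hyaluronan. In the developing liver mesothelium gives rise to stellate cells and other mesenchymal cells, and in injured liver its cells can take on a fibroblast-like state in response to TGF-β. αV integrins release active TGF-β from its latent complex, which is why their inhibition is studied in liver fibrosis.

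The libraries held 56, 27 and 21 mesothelial cells for DMSO 1 to 3, and 6, 29 and 38 for CWHM-12 1 to 3. The cells had a median of 4971 UMIs (754 to 28577), 2103 detected genes and 9.05% mitochondrial UMIs. Summed counts came to 1006863 UMIs, of which 657067 were from DMSO libraries and 349796 from CWHM-12 libraries. No mesothelial barcode sequence occurred in more than 1 library, and any 2 libraries shared at most 5 barcodes. CWHM-12 1, with 6 cells, was left out of the count models below, which asked for at least 10 cells in a library. Only 1 mesothelial cell had a Scrublet doublet score above 0.25.

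The promoters of 2 genes are shown because the account turns on them. Upk3b, the leading marker of the rule, was found in all but 1 of the 177 cells, and Igfbp5 divided the cells and libraries into high and low. The windows run from 250 bases before to 50 bases after the RefSeq start (build GRCm38.p6), at chr5:136038246-136038545 on the plus strand for Upk3b and at chr1:72874816-72875115 on the minus strand for Igfbp5. Capitals mark the letters of the TEAD motif GGAATG, here as its reverse complement CATTCC.
Upk3b: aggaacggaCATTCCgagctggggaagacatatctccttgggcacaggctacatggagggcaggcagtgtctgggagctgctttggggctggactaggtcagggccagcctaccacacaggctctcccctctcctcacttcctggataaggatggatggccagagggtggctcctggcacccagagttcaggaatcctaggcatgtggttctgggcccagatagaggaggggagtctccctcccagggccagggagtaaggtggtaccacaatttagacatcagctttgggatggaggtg
Igfbp5: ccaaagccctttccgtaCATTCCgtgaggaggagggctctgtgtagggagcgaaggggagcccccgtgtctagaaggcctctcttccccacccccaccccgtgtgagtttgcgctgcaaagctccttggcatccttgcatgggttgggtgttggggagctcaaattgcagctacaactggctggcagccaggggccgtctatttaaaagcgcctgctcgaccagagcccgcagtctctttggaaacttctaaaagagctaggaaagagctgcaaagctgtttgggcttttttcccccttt
Of 24 lead genes of these cells, 17 had a promoter in the RefSeq table. The motif, searched on both strands, was in 3 of those 17 (Cldn15, Igfbp5 and Upk3b), against 14.6% of 27025 promoters of the same length. A core of EGR and WT1 sites, GCGTGGG or its reverse complement CCCACGC, was in none of the 17 and in 4.92% of all promoters. These matches are letters in a window and were not tied to binding.

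Markers outside the rule are read further below, against stellate cells and cholangiocytes only. Portal fibroblasts were not compared, so the label was not checked against them. The rule's own genes chose the cells, so their levels are given only as a description. Levels are in CPM, the UMIs of a gene per 1000000 UMIs summed over the mesothelial cells of a library. Upk3b, a membrane protein of the uroplakin family, was at 2747, 1538 and 2604 CPM in the DMSO libraries and at 1544, 2226 and 2501 in the CWHM-12 libraries (here and below in the order 1 to 3). Msln, which encodes the surface glycoprotein mesothelin, was at 346, 193 and 290 CPM in the DMSO libraries and at 364, 392 and 450 in the CWHM-12 libraries. All 6 libraries thus carried both genes. The groups overlapped for Upk3b. For Msln the 3 CWHM-12 libraries were the highest, as for 4.94% of 3641 genes with at least 50 UMIs, and nothing is read from it since Msln chose the cells. Wt1, a transcription factor of mesothelium and kidney, ranged from 310 to 632 CPM over the 6 libraries, and Gpm6a, a membrane glycoprotein, from 1126 to 1614.

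By cell, Upk3b was detected in 99.4% of the 177, Gpm6a in 91.0%, Upk1b in 89.3%, Lrrn4 in 73.4%, Wt1 in 72.9% and Msln in 60.5%. All 6 markers were detected in 71 cells, 5 in 56, 4 in 18, 3 in 19 and the minimum of 2 in 13. Those 13 cells just inside the rule were shallow, with a median of 1499 UMIs, and had 2844 CPM of Igfbp5 and 5454 CPM of Alb, the hepatocyte albumin. Just outside, 4 cells with Msln or Upk3b alone had 185 CPM of Igfbp5 and 11284 of Alb, and 4 cells with at least 2 markers but neither Msln nor Upk3b had 598 of Igfbp5. A further 91 barcodes passed on markers but held an excluding transcript. Their median depth was 10716 UMIs, 60 of them had 5 or 6 of the markers, and 59 held the Kupffer cell transcript Clec4f. The excluding transcripts took 13 of 69, 8 of 35 and 14 of 35 marker-positive barcodes in DMSO 1 to 3, and 6 of 12, 27 of 56 and 23 of 61 in CWHM-12 1 to 3.

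Defining transcripts of lymphocytes and neutrophils were scarce in the 177, and those of macrophages and endothelium varied by gene. Several genes listed for stellate cells and portal fibroblasts were common. Of the 10 stellate markers, Rgs5 and Hgf had no UMI, Lrat 1, Ngfr 1, Reln 2 and Pdgfrb 2, but Ecm1 was detected in 68.4% of the cells, Hand2 in 26.6% and Colec11 in 10.7%. Of the 6 portal fibroblast markers, Pi16 had no UMI and Dpt 1, but Cd34 was detected in 72.9%, Thy1 in 26.0%, Clec3b in 22.6% and Entpd2 in 39 cells. Of the duct markers beside Krt7 and Krt19, Epcam and Cldn7 had no UMI, Spp1 1 and Sox9 3, while Tspan8 was detected in 15.8% and Cldn3 in 5.65%. Kdr, a VEGF receptor listed for endothelium, was detected in 65.0%, Ptprb in 14.1% and Lyve1 in 8.47%, whereas Stab2 was in 2.82%. Of the macrophage markers, Lyz2 was detected in 20.9%, C1qb in 13.6%, Cd5l in 9.04% and C1qa in 2.82%, and Marco had 1 UMI. Epcam, Stab2, Reln and the other excluding transcripts were limited by the rule itself. The portal fibroblast list took 0.413 to 0.619% of the mesothelial UMIs per library, against 0.0116 to 0.0195% in the other kept cells, and the stellate list 0.646 to 1.47%, against 0.253 to 0.727%. The macrophage list took 0.0173 to 0.0291%, against 1.16 to 1.76%. The sinusoidal endothelial list took 0.0382 to 0.111%, against 1.15 to 1.82%. Hepatocyte transcripts took 0.108 to 0.379% in DMSO and 0.0784 to 0.382% in CWHM-12 libraries, and Alb was detected in 76.8% of mesothelial cells, 75.2% of stellate cells and all cholangiocytes, at median depths of 4971, 2288 and 6206 UMIs. How far these transcripts are the cells' own was not tested. Mki67, a proliferation marker, had a UMI in 0 of 177 cells, which allows up to 1.69% of cells with a UMI and sets no limit on cells that express it, and Top2a had a UMI in 1.

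To show what sets these cells apart, they were compared with 2 other populations of the same livers, each picked by its own markers. Stellate cells, the vitamin A storing pericytes of the sinusoid, are another mesenchymal population (1996 barcodes). Cholangiocytes, which line the bile ducts, are another keratin-bearing epithelium (615 barcodes). Portal fibroblasts were not compared, so the traits below are not set against them. Counts were summed per library and population over the 5 libraries with enough cells, and edgeR's quasi-likelihood test was run with the library as a block and Benjamini-Hochberg adjustment over all genes tested. Genes of the marker rules are not counted. As all 3 populations were chosen by expression, genes tied to the marker genes differ by that choice, and the counts describe the populations. Against stellate cells, 3202 of 8313 genes passed (38.5%), 1495 higher in mesothelial cells (18.0%) and 1707 lower (20.5%). Against cholangiocytes, 3474 of 8634 passed (40.2%), 1727 higher (20%) and 1747 lower (20.2%). Shares of list members are to be read against these.

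Of mesothelial markers outside the rule, all 20 tested were higher than in stellate cells, with a median log2 fold change of 8.67, or 8.36 with genes at 0 in stellate cells set to their bound, against -0.06 over all genes. Muc16, a very large membrane mucin that keeps serosal surfaces from sticking, was at 406, 599 and 372 CPM in the DMSO libraries and at 191, 215 and 343 in the CWHM-12 libraries. All 3 DMSO libraries stood above the 3 CWHM-12 libraries. Non-overlap with CWHM-12 lower was found for 6.43% of 3641 genes with at least 50 UMIs. Stellate cells had no UMI of Muc16, a level at least 805-fold lower. By cell it was in 62.7% of mesothelial cells, 0 of 1996 stellate cells and 3 of 615 cholangiocytes. Slpi, a secreted inhibitor of leukocyte proteases, was at 1770, 1325 and 3087 CPM in DMSO libraries and at 1665, 1050 and 4205 in CWHM-12 libraries, with overlap between the groups. Its stellate median was 0.792, and the log2 fold change was 9.07 ± 0.39 (SE, edgeR adjusted p = 2.15e-14). Rspo1, which amplifies Wnt signals, was at 364 ± 102 CPM (SD, n = 6), while the stellate libraries fitted held 1 UMI of it and the cholangiocyte libraries none, at least 476-fold lower. Pkhd1l1, a giant membrane protein, was also at 0 UMIs in cholangiocytes, at least 444-fold lower, and at 297 ± 69.0 CPM (SD, n = 6) in mesothelium.

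**Figure D1:**
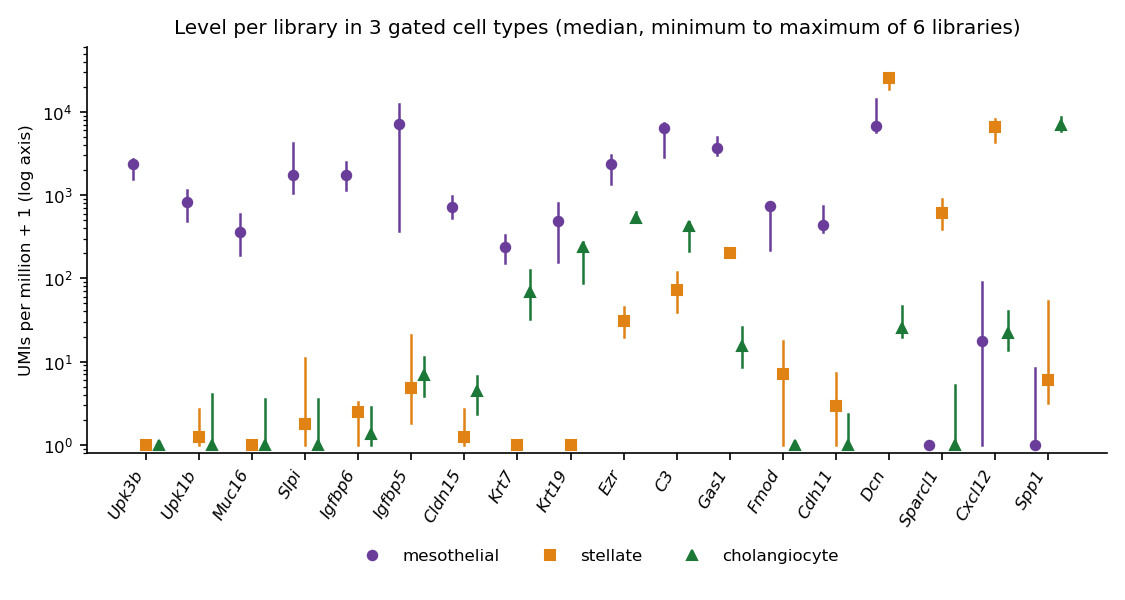
Level of 18 genes per library, in CPM plus 1 on a log axis, for mesothelial (circles), stellate (squares) and cholangiocyte (triangles) populations. Symbols are medians and lines run from the lowest to the highest of 6 libraries. Muc16, Slpi and Igfbp6 stand high only in the mesothelial population among the 3 shown, Krt7 and Krt19 are shared with cholangiocytes, and Dcn is shared with stellate cells.

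Epithelial structure genes set the cells apart from stellate cells, with 13 of 15 tested keratin and junction genes higher and 1, Jup, lower. Krt19, an intermediate filament of simple epithelia, was at 556, 320 and 811 CPM in DMSO libraries and at 156, 430 and 812 in CWHM-12 libraries. No stellate library fitted held a UMI of Krt19, a level at least 1207-fold lower, and Krt7 was likewise at least 501-fold lower there. Against cholangiocytes the keratins parted. Krt7 (log2 fold change 1.86 ± 0.19 (SE), edgeR adjusted p = 4.74e-11) and Krt19 (1.64 ± 0.15) were higher in mesothelial cells, whereas Krt8 (-2.22 ± 0.16) and Krt18 (-1.92 ± 0.17) were lower. Of 18 keratin and junction genes, 6 were higher and 7 lower than in cholangiocytes, with a median of 0.11 against -0.11 over all genes.

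Junction genes parted in the same comparison. Cldn15, a claudin that forms cation pores, was at 720, 719 and 908 CPM in DMSO libraries and at 590, 531 and 986 in CWHM-12 libraries, against 3.31 ± 1.58 (SD, n = 6) in cholangiocytes. Cdh1, the epithelial cadherin, was nearly absent from mesothelial cells. It was found in 1.13% of them, against 92.8% of cholangiocytes, and its log2 fold change was -7.92 ± 0.34 (SE, edgeR adjusted p = 6.78e-23). Cdh11, a mesenchymal cadherin, was at 475 ± 144 CPM (SD, n = 6) in mesothelial cells, against 2.60 ± 2.69 in stellate cells. F11r and Cxadr, 2 tight-junction adhesion proteins, did not pass against cholangiocytes (log2 fold changes 0.20 ± 0.14 and -0.12 ± 0.18) and were higher than in stellate cells (2.82 ± 0.21 and 4.98 ± 0.42). Ezr, which ties microvilli to the actin cortex, exceeded both populations, at 2212 ± 609 CPM (SD, n = 6) against 30.5 ± 9.61 in stellate cells and 528 ± 57.4 in cholangiocytes.

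Of mesothelial transcription factors, 9 of 16 tested were higher than in stellate cells and 6 lower, and 11 of 13 were higher than in cholangiocytes with none lower. Bnc1, a zinc finger factor of epithelia, was at 233 ± 85.4 CPM (SD, n = 6), with a log2 fold change of 8.65 ± 0.38 (SE) over stellate cells. Klf4 (4.20 ± 0.27) and Gata6 (1.49 ± 0.19) were also higher. Those lower than in stellate cells were Gata4, Hand2, Lhx2, Nr2f1, Nr2f2 and Tcf21. Lhx2, which holds stellate cells in their quiescent state, had 0 UMIs in mesothelial cells and was at least 141-fold lower. Tcf21, a factor of visceral mesenchyme, was at 2.02 CPM against a stellate median of 483.

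Matrix genes placed the cells far from cholangiocytes and split them from stellate cells. Of 26 collagen and matrix genes tested against cholangiocytes, 25 were higher and none lower. Against stellate cells, 11 of 29 were higher and 15 lower, with a median of -0.56. Dcn, a small collagen-binding proteoglycan, was at 6273, 7136 and 5780 CPM in DMSO libraries and at 6435, 14091 and 8785 in CWHM-12 libraries. CWHM-12 2 stood above the rest, and the groups overlapped. Dcn was lower than in stellate cells by a log2 fold change of -1.90 ± 0.17 (SE) and higher than in cholangiocytes by 8.13 ± 0.19 (edgeR adjusted p = 7.12e-09 and 2.15e-31). Efemp1 (0.88 ± 0.18), Timp2 (1.69 ± 0.16) and Fbln1 (5.93 ± 0.33), which encode extracellular matrix proteins and a metalloproteinase inhibitor, were higher than in stellate cells. Col1a1 was at 744 ± 590 CPM (SD, n = 6) against 527 ± 164 in stellate cells and did not pass (0.13 ± 0.24, edgeR adjusted p = 0.724). Fmod, a collagen-binding proteoglycan, had no UMI in cholangiocytes, at least 832-fold lower.

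Basement membrane genes split by chain. The common collagen IV chains Col4a1 (-3.12 ± 0.24) and Col4a2 (-3.59 ± 0.24) and the linker Nid1 (-3.84 ± 0.21) were lower than in stellate cells. Lama5 (1.33 ± 0.27) and Col4a5 (3.85 ± 0.38), chains found in epithelial basement membranes, were higher, each by its log2 fold change ± SE with an edgeR adjusted p under the threshold of 0.05. In all, 6 of 18 were higher and 10 lower than in stellate cells.

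Genes often read as mesenchymal were mostly lower than in stellate cells, 11 of 17 against 5 higher, with a median log2 fold change of -3.15. Vim, the mesenchymal intermediate filament, was among the 5 higher, at 2583 ± 963 CPM (SD, n = 6) against 796 ± 202 in stellate cells and 15.6 ± 5.31 in cholangiocytes. Acta2, Tagln, Des and Pdgfrb, the contractile and pericyte genes, were lower, as were the transition factors Snai1, Snai2 and Zeb2. Zeb2 was at 12.8 ± 8.62 CPM against a stellate median of 586. By cell, Acta2 was found in 10.2% of mesothelial and 7.01% of stellate cells, whose median depth was lower.

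The surface coat list was higher than in stellate cells for 7 of 9 genes (Gpc3, Has1, Muc16, Podxl, Prg4, Sdc4 and Sulf1) and lower for 1, the hyaluronan receptor Cd44. Against cholangiocytes the same 7 were higher and Muc1 was lower, of 11 tested. Gpc3, a heparan sulfate proteoglycan, was at 1724, 1245 and 1674 CPM in DMSO libraries and at 2099, 1531 and 1553 in CWHM-12 libraries, with overlap, against 187 ± 79.5 (SD, n = 6) in stellate cells. Sulf1, which trims sulfate from heparan chains, had no UMI in cholangiocytes, at least 801-fold lower.

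Complement genes were high. Of 11 tested, 9 exceeded stellate cells and 1 was lower, and of 12 tested, 8 exceeded cholangiocytes and 3 were lower. C3, the central component cleaved in every complement pathway, was at 6353, 2829 and 5862 CPM in DMSO libraries and at 7285, 6388 and 6880 in CWHM-12 libraries. Each CWHM-12 library lay above each DMSO library, a pattern found with CWHM-12 higher for 4.94% of 3641 genes, and the treatment difference did not pass (log2 fold change 0.23 ± 0.54, edgeR adjusted p = 0.987). C3 was far higher than in stellate cells (6.23 ± 0.23, edgeR adjusted p = 1.88e-15) and in cholangiocytes (3.98 ± 0.13). It was found in 98.9% of mesothelial cells, 16.5% of stellate cells and 74.1% of cholangiocytes. The regulators moved along with it: Serping1, the C1 inhibitor, was at 3754 ± 815 CPM (SD, n = 6) against 1974 ± 588 in stellate cells, and Cd55, which breaks up C3 convertase, was at 188 ± 23.7 against a stellate median of 6.43. Clu, a complement-binding chaperone, was lower than in cholangiocytes (-3.21 ± 0.12).

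Caveolar and transport genes were higher than in stellate cells for 10 of 11 tested, all but the glucose carrier Slc2a1. Aqp1, the water channel, was at 2427, 433 and 1235 CPM in DMSO libraries and at 954, 999 and 1183 in CWHM-12 libraries. DMSO libraries held both its lowest and its highest value. Aqp1 exceeded stellate cells by a log2 fold change of 4.76 ± 0.27 and cholangiocytes by 6.52 ± 0.22 (SE, edgeR adjusted p = 2.42e-12 and 1.35e-26). Cav1, the main protein of caveolae, was at 905 ± 325 CPM (SD, n = 6) against 6.77 ± 10.1 and 175 ± 18.8. Lrp2, a large endocytic receptor, had no UMI in stellate cells, at least 408-fold lower.

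Secreted signals differed in kind. Growth factor, Wnt and BMP ligand genes were higher than in stellate cells for 14 of 23 and lower for 7. Higher ones included Wnt5a (2.30 ± 0.23), Bmp4 (0.92 ± 0.20) and Fgf1 (3.77 ± 0.42), and lower ones Rspo3, Vegfa and Bmp2. Stellate cells had Gdf10, a BMP family ligand, where mesothelial cells had no UMI, at least 146-fold lower. Cxcl12, a chemokine that retains leukocytes, was at 23.7 ± 33.3 CPM (SD, n = 6) against 6599 ± 1370 in stellate cells. Aldh1a2, which makes retinoic acid, was at 344 ± 154 against a stellate median of 0.42, while 5 of 9 retinoid genes were lower than in stellate cells.

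IGF binding proteins, which bind insulin-like growth factors outside the cell, divided evenly against stellate cells: Igfbp4, Igfbp5 and Igfbp6 were higher, and Igfbp1, Igfbp3 and Igfbp7 lower. Igfbp6 was at 2025, 1411 and 2507 CPM in DMSO libraries and at 1145, 1518 and 1952 in CWHM-12 libraries, with overlapping groups. It was found in 94.4% of mesothelial cells, 0.4% of stellate cells and 0.49% of cholangiocytes. Igfbp7, by contrast, was at 2718 ± 540 CPM (SD, n = 6) against 10386 ± 1965 in stellate cells (-2.24 ± 0.17, edgeR adjusted p = 2.21e-10).

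Interferon and antigen presentation genes were lower than in stellate cells, 14 of 22 and 9 of 11, with 1 higher in each list (Gbp2 and Tapbp). B2m, the light chain of MHC class I, was at 3261 ± 873 CPM (SD, n = 6) against 7351 ± 1928 (-1.53 ± 0.19, edgeR adjusted p = 1.04e-06). Against cholangiocytes B2m was higher (0.65 ± 0.12), but the 11 class I presentation genes divided. Of them, 3 were higher (B2m, Tap2 and Tapbp) and 5 lower (H2-K1, H2-Q4, H2-Q6, H2-Q7 and Tap1). Of 20 interferon genes, 10 were higher than in cholangiocytes and 1 lower. The H2 genes are near-identical copies whose reads the counting could split, so their single values are uncertain. Early response genes, which also respond to tissue dissociation, were higher than in stellate cells for 13 of 22 and lower for 2, and the part of the preparation was not tested.

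**Figure D2:**
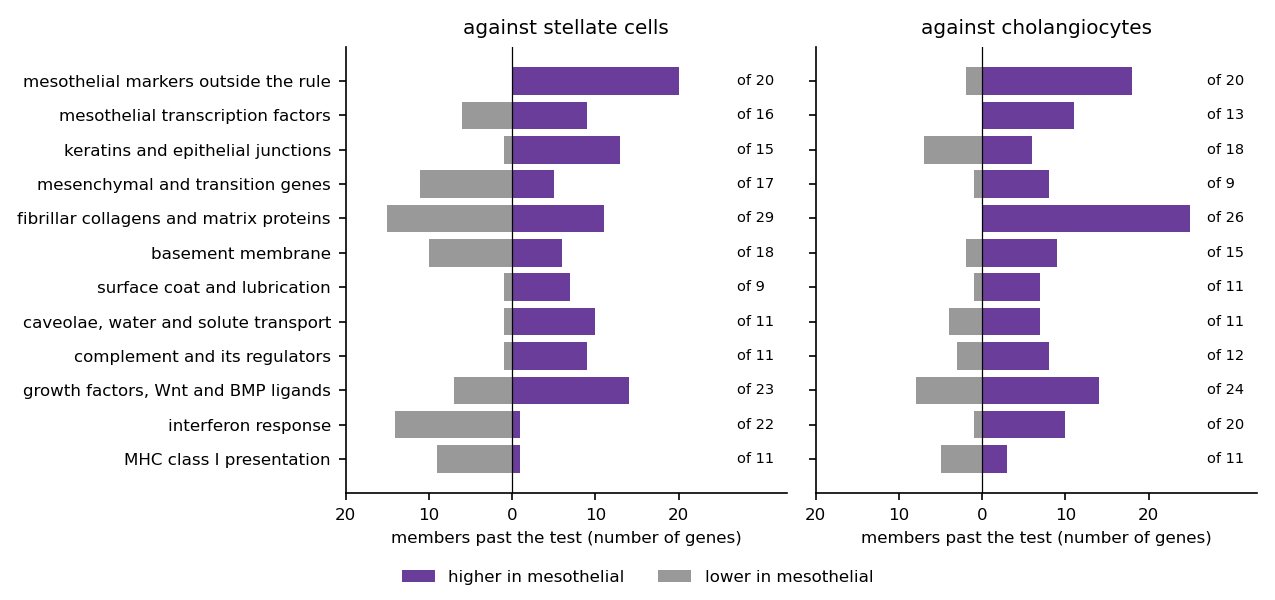
Number of genes in each of 12 lists that passed the edgeR test against stellate cells (left) and cholangiocytes (right). Purple bars to the right count genes higher in mesothelial cells, grey bars to the left genes lower, and the number tested stands at the right edge. Collagen and matrix genes divided 11 to 15 against stellate cells and 25 to 0 against cholangiocytes.

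The treatment acts on αV integrins, so the genes of that system come first. Itgav, the αV subunit, was at 166, 140 and 179 CPM in DMSO libraries and at 208, 75.9 and 197 in CWHM-12 libraries. Its groups overlapped, and the difference did not pass (log2 fold change -0.19 ± 0.56 (SE), edgeR adjusted p = 0.987). Of its β partners, Itgb1 ranged from 208 to 506 CPM, Itgb5 from 9.39 to 40.3, Itgb8 from 7.44 to 52.0 and Itgb3 from 0 to 33.3. Itgb6, the epithelial partner, had no UMI in any library, where 3 UMIs over all cells would be 2.98 CPM. Itgav did not pass against stellate cells (-0.19 ± 0.20, edgeR adjusted p = 0.517), whereas Itgb1, Itgb3 and Itgb5 were lower and Itgb8 higher than in them. Of the TGF-β ligands, Tgfb2 was at 142 ± 59.96 and Tgfb3 at 138 ± 53.5 CPM (SD, n = 6), both higher than in stellate cells (0.85 ± 0.23 and 2.83 ± 0.31), and Tgfb1 was at 0 in 4 of 6 libraries.

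The treatment test used 5 libraries with batch as a term. As CWHM-12 1 was left out, its batch held DMSO libraries only, and the contrast compared DMSO 3 with CWHM-12 2 and CWHM-12 3, while DMSO 1 and 2 informed only the spread. Of 4270 genes tested, 14 passed at an edgeR adjusted p under 0.05 (0.328%), 6 higher with CWHM-12 (0.141%) and 8 lower (0.187%), and 246 had an unadjusted p under 0.05. Of the 17 TGF-β response genes tested, 1 was lower (Ltbp2), and the list's median was -0.27 against 0.02 over all genes. Of 12 TGF-β ligand, receptor and latency genes, Ltbp2 again was the 1 that passed, and of 24 collagen and matrix genes 1 passed, the elastin gene Eln. These 14 calls were lost without the batch term (0 passed, 188 at an unadjusted p under 0.05) and when CWHM-12 1 was let in (0 passed, 112 at an unadjusted p under 0.05).

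Ltbp2, a matrix protein of elastic fibres related to the latent TGF-β binding proteins, was at 166, 226 and 484 CPM in DMSO libraries and at 746, 0 and 28.2 in CWHM-12 libraries. The library with 6 cells, CWHM-12 1, was the highest, and the other 2 CWHM-12 libraries were the lowest. In CWHM-12 1, 1 cell held 81.4% of the Ltbp2 UMIs, and without it that library was at 165 CPM. In DMSO 2, 1 cell held 61.8%, and without it the level was 89.3 CPM. Its log2 fold change was -4.51 ± 0.64 (SE, edgeR adjusted p = 0.000506). Mylk, the myosin light chain kinase that drives contraction, was also highest in CWHM-12 1 and lowest in CWHM-12 2 and 3, at 242, 107 and 171 CPM in DMSO libraries and at 434, 0 and 9.39 in CWHM-12 libraries (-4.48 ± 0.88, edgeR adjusted p = 0.0167). Bche, a serum cholinesterase, was at 64.4, 153 and 126 CPM in DMSO libraries, at 815 in CWHM-12 1 and at 0 in CWHM-12 2 and 3. For all 3 genes the highest and the lowest values were within the CWHM-12 group. The cell of CWHM-12 1 with most of its Ltbp2 UMIs also held 52% of its Mylk and 59.6% of its Bche UMIs. Without that cell, CWHM-12 1 was at 248 CPM of Mylk and 393 of Bche, and it was no longer the highest library for Ltbp2.

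The other genes that were lower had DMSO 3 as their highest library. Eln was at 169, 126 and 588 CPM in DMSO libraries and at 69.4, 88.5 and 103 in CWHM-12 libraries (-2.52 ± 0.47, edgeR adjusted p = 0.0115), with DMSO 1 and 2 also above all CWHM-12 libraries. Such non-overlap with CWHM-12 lower was found for 6.43% of 3641 genes with at least 50 UMIs. Angptl7, a secreted angiopoietin-like protein, was at 303, 39.9 and 1250 in DMSO libraries and at 451, 88.5 and 65.7 in CWHM-12 libraries (-4.01 ± 0.65, edgeR adjusted p = 0.00274). In DMSO 3, 58.3% of its UMIs came from 1 cell (583 CPM without it), and in DMSO 1 46.0% (169 CPM without it). In CWHM-12 1, 1 cell held 96.2% of them, and without it that library was at 23.3 CPM. Saa3, an acute phase protein, passed through 1 cell of the 21 in DMSO 3, which held all 185 of that library's UMIs. Abcb1b, a drug efflux pump, ranged from 186 to 498 CPM in DMSO libraries and from 50.6 to 208 in CWHM-12 libraries. Slc6a6, the taurine carrier, was at 670 CPM in DMSO 3 and between 86.7 and 145 in the other 5 libraries.

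Genes that were higher with CWHM-12 had DMSO 3 as their lowest library. Enpp2, the enzyme autotaxin that makes lysophosphatidic acid, was at 258, 113 and 29.8 CPM in DMSO libraries and at 139, 2327 and 375 in CWHM-12 libraries (5.47 ± 1.01, edgeR adjusted p = 0.0115). It was found in 16 of 29 cells of CWHM-12 2, but in CWHM-12 3 1 cell held 73.8% of its UMIs (102 CPM without that cell) and in DMSO 1 52.1% (133 CPM without it). Fgf1, a fibroblast growth factor, was at 110, 126 and 14.9 in DMSO libraries and at 156, 696 and 268 in CWHM-12 libraries (4.93 ± 0.84, edgeR adjusted p = 0.00461). All CWHM-12 libraries were above all DMSO libraries, as for 4.94% of 3641 genes with at least 50 UMIs. In CWHM-12 1, 1 cell held 88.9% of the Fgf1 UMIs, and without it that library was at 18.4 CPM. Myl7, an atrial myosin light chain, was at 180, 33.3 and 7.44 in DMSO libraries and at 104, 380 and 202 in CWHM-12 libraries. All Myl7 UMIs of CWHM-12 1 came from 1 cell, and those of CWHM-12 2 from 3 of 29 cells. Cd74, Adgrf5 and Casp12 had no UMI in DMSO 3 and were present in DMSO 1 and 2, so no fold is given. Cd74, the MHC class II chaperone, was at 185 and 73.2 CPM in those 2 and at 139, 228 and 93.9 in CWHM-12 libraries, with overlap.

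Beside these calls, other readouts moved between the same libraries. Hepatocyte transcripts in the mesothelial counts had a positive log2 fold change for 16 of 17 genes tested, with a median of 1.53 and none passing. The whole hepatocyte list took 0.108% of UMIs in DMSO 3, 0.0784% in CWHM-12 2 and 0.382% in CWHM-12 3. Only CWHM-12 3 was thus above DMSO 3. All 4 MHC class II genes tested were positive (median 2.11, 1 passing, Cd74), and 13 of 16 interferon genes were positive (median 0.86, none passing). The median depth per cell was 6078 UMIs in DMSO 3, against 1985 in CWHM-12 2 and 4575 in CWHM-12 3. The part of these readouts in the 14 calls was not tested.

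**Figure D3:**
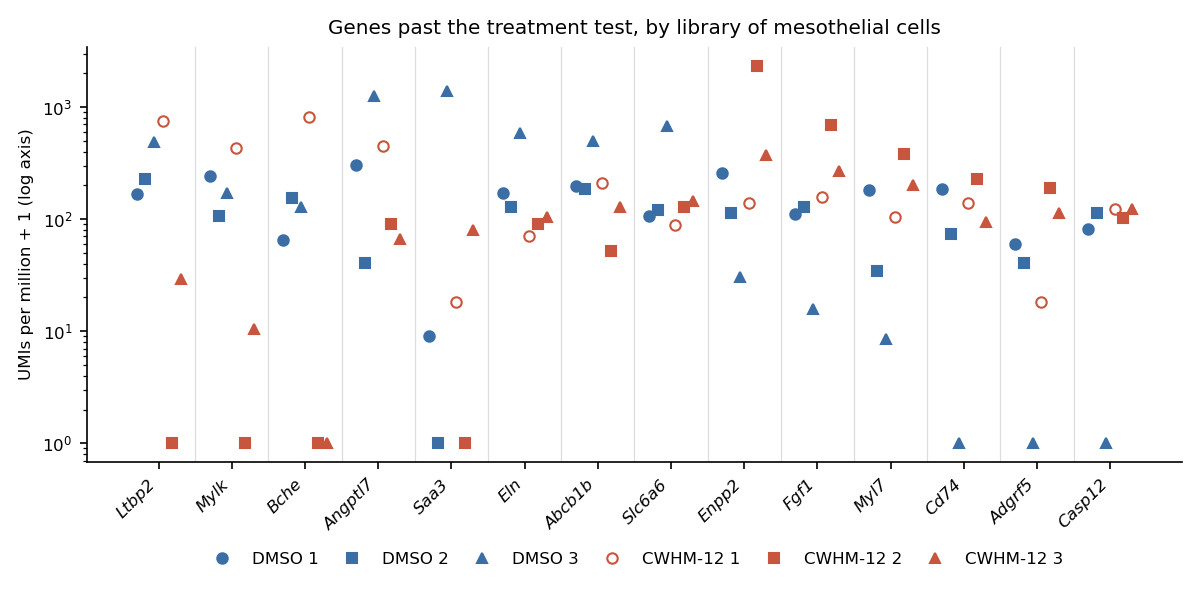
CPM plus 1, on a log axis, of the 14 genes that passed the treatment test, with 1 symbol per library of mesothelial cells. DMSO is blue, CWHM-12 is red and the open circle is CWHM-12 1, which the test left out. DMSO 3 (blue triangles) is the lowest library for the 6 genes at the right and the highest for Angptl7, Saa3, Eln, Abcb1b and Slc6a6.

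Igfbp5 differed widely between libraries. It was at 6498, 9578 and 1614 CPM in DMSO libraries and at 364, 12308 and 7692 in CWHM-12 libraries. DMSO 3 and CWHM-12 1 were low, the other 4 were high, and the groups overlapped. Its treatment difference missed the threshold (log2 fold change 2.67 ± 0.61, edgeR adjusted p = 0.0517). It passed in 9 of 17 alternative settings, DESeq2 and limma voom among them, and turned in 2, at -0.72 when CWHM-12 1 was let in and -0.38 with positive markers alone. Over the 17 settings the adjusted p ran from 1.79e-07 to 0.994. Every library stood above the stellate mean of 5.94 CPM (9.51 ± 0.59, edgeR adjusted p = 7.82e-12).

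Within libraries the cells also differed. Per 10000 UMIs of a cell, Igfbp5 had a median of 40.6 and a maximum of 456, and 28 of the 177 cells had none. Only 52 cells lay within 2-fold of the median. Library medians were 38.9, 49.6 and 2.55 for DMSO 1 to 3 and 1.36, 96.7 and 52.5 for CWHM-12 1 to 3. The cells were then split at the median of all cells, a split chosen after the values were seen and given with no test, since a cut through a continuous range makes no cell type. Pooled over libraries, the median depth was 4838 UMIs below and 4971 above, Msln was at 310 and 377 CPM and Upk3b at 2264 and 2515, both genes of the rule. Single libraries differed more: in DMSO 3 the 18 cells below had a median of 7090 UMIs and the 3 above 1976, with Msln at 263 and 679 CPM, and in CWHM-12 2 the medians were 1601 and 2412 UMIs, with Msln at 82.0 and 449 CPM.

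Other genes were uneven across the split. Cells below the median had 389 CPM of Ltbp2 against 16.4 above it, 258 of Thbs1, which activates latent TGF-β, against 26.6, and 208 of Bche against 6.15. Maf, a transcription factor, was at 1160 against 393. Cells above the median had more of Lgals1, the lectin galectin-1 (1482 against 145), of Enpp2 (750 against 44.3), of Fgf1 (299 against 71.3) and of Cd34 (832 against 295). Within DMSO 1, which had cells on both sides in near equal number (29 and 27), Ltbp2 was at 319 below and 10.8 above, and Lgals1 at 106 below and 1372 above. DMSO 2 had 528 and 42.8 of Ltbp2 and 106 and 568 of Lgals1. Single cells weighed heavily: 1 cell held 59.3% of the Lgals1 UMIs above the median in DMSO 1 (650 CPM without it) and 88.7% in DMSO 2 (92.6 CPM without it, under the level below the median). For Ltbp2 below the median, 1 cell held 21.7% in DMSO 1 (264 CPM without it) and 70.0% in DMSO 2 (172 CPM without it). The Ltbp2 difference thus held in DMSO 1 and DMSO 2 without its largest cell, and the Lgals1 difference only in DMSO 1. There, 3 cells held 87.2% of the library's Lgals1 UMIs, so that difference rested on few cells.

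The libraries held unequal shares of such cells. Cells below the median made up 51.8, 48.1 and 85.7% of DMSO 1 to 3 and 100, 24.1 and 39.5% of CWHM-12 1 to 3. All 8 genes lower with CWHM-12 were higher in pooled cells below the median, from 389 against 16.4 CPM for Ltbp2 to 227 against 156 for Eln. All 6 genes higher with CWHM-12 were higher in pooled cells above it, from 750 against 44.3 CPM for Enpp2 to 86.1 against 50.1 for Adgrf5. These genes were called on DMSO 3 against CWHM-12 2 and CWHM-12 3, and the pooled sides differ in the same libraries. DMSO 3 gave 125584 UMIs below and 8835 above, CWHM-12 2 gave 12194 and 66863, and CWHM-12 3 gave 78677 and 134407. The pooled directions are thus partly set by how the genes were chosen, and the share over all genes was not computed. Within libraries directions were mixed. Eln was lower below the median in DMSO 2 (87.9 against 150 CPM), DMSO 3 (534 against 1358) and CWHM-12 3 (38.1 against 141). It was higher below in DMSO 1 (197 against 141) and CWHM-12 2 (164 against 74.8). Adgrf5 was higher below in CWHM-12 3 (203 against 59.5) and lower below in DMSO 1, DMSO 2 and CWHM-12 2. Among cells below the median only, Ltbp2 was at 319, 528 and 518 CPM in DMSO libraries and at 746, 0 and 50.8 in CWHM-12 libraries. The part of the cell mix in the treatment calls was not tested.

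Enpp2 marked a smaller set with more fibroblast transcripts. Cells with an Enpp2 UMI numbered 34 of 177, had a median of 3412 UMIs against 5084 in the rest, and were again picked after the values were seen, with no test. Pooled, they had 2144 CPM of the collagen gene Col1a1 against 307 in the other 143 cells, 1086 of the matrix gene Fbln1 against 89.9, 1446 of Cd34 against 357 and 3825 of Lgals1 against 118. Msln was at 191 against 376 and Slpi at 884 against 2654, while Upk3b was at 2281 against 2409. In CWHM-12 2, with 16 such cells of 29, Col1a1 was at 3191 against 238 CPM and Msln at 132 against 744. DMSO 1 showed the same directions with 6 such cells, Col1a1 being at 2170 against 377 and Msln at 70.6 against 396. Of those 6 cells, 1 had 26112 UMIs and held 67 of the library's 242 Col1a1 UMIs, so that library rested largely on it. The part of these cells in the Enpp2 and Fgf1 calls was not tested.

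**Figure D4:**
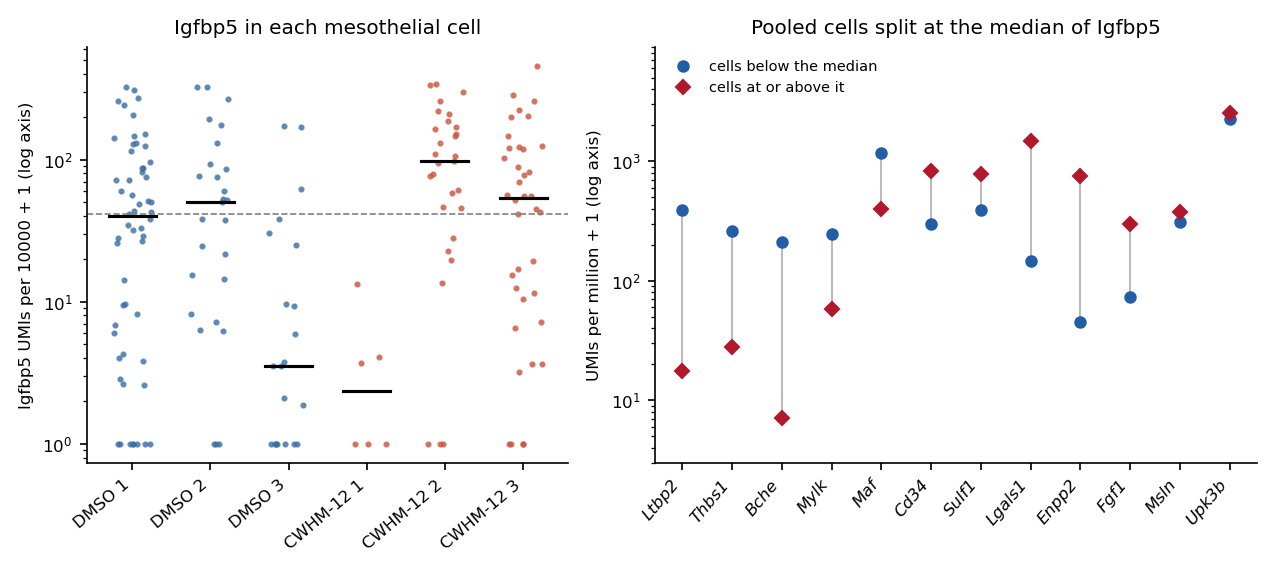
Left, Igfbp5 UMIs per 10000 UMIs plus 1 (log axis) in each of the 177 mesothelial cells by library, with black bars at library medians and a dashed line at the median of all cells, 40.6. Right, pooled CPM plus 1 (log axis) of 12 genes in cells below that median (blue circles) and at or above it (red diamonds). Ltbp2, Thbs1 and Bche are higher below, Lgals1 and Enpp2 above, and Msln and Upk3b lie close together.

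The share of mesothelial cells was read among kept cells with under 10% of UMIs from hepatocyte genes, as the preparation sets the hepatocyte share. It was 0.979% (95% exact binomial interval 0.740 to 1.27), 0.861% (0.568 to 1.25) and 0.338% (0.209 to 0.516) in DMSO 1 to 3. In CWHM-12 1 to 3 it was 0.0982% (0.0361 to 0.214), 0.346% (0.232 to 0.497) and 0.502% (0.355 to 0.688). DMSO 1 and 2 were the highest and CWHM-12 1 the lowest, and the groups overlapped. Group means were 0.726 ± 0.341% and 0.315 ± 0.204% (SD, n = 3 each), a difference of -0.411 percentage points (two-sided exact permutation test, p = 0.3, where 20 assignments allow no p under 0.1). Within batch 2024.6 the difference was -0.822, and within batch 2024.12 it was 0.0859, of opposite sign. The intervals cover counting error only, and the share is one of the prepared suspension, not of the liver.

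**Figure D5:**
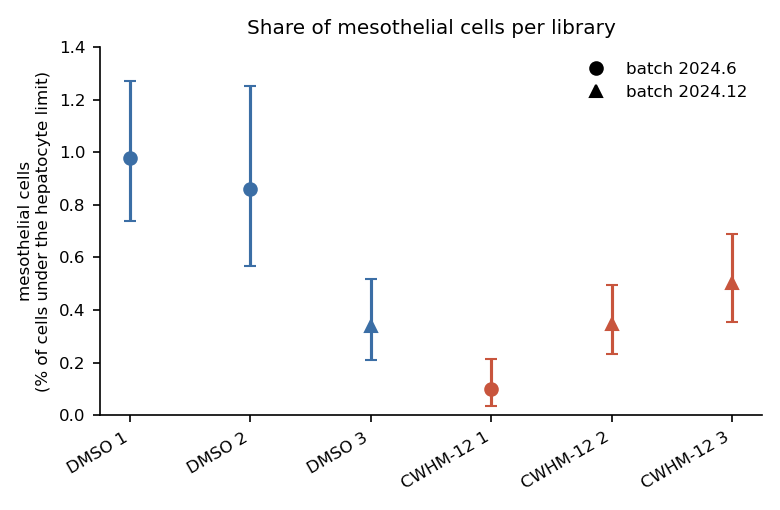
Mesothelial cells as a percentage of kept cells under the 10% hepatocyte limit, by library, with 95% exact binomial intervals. DMSO is blue, CWHM-12 is red, circles are batch 2024.6 and triangles batch 2024.12. The red circle, CWHM-12 1, lies at 0.0982%, below all others, while in batch 2024.12 the 3 libraries lie between 0.338 and 0.502%.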

How the data were processed

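Single-cell RNA libraries (BD Rhapsody) of 6 livers were used as the deposited UMI counts per gene and barcode, whole numbers per the file headers and values, mapped to GRCm39, as the submitters' processing notes list. For the aligner, the annotation and the choice of barcodes, the sources used here give nothing. Cells were taken by the marker rules, stellate cells by at least 2 of Lrat, Reln, Ecm1, Colec11, Rgs5 and Hgf (Lrat or Reln among them) and cholangiocytes by Epcam with Cldn3, Cldn7, Tspan8 or Sox9, each without the other rules' excluding markers. Scrublet scores (scanpy 1.11.5) were computed and no cell was removed by them. Counts summed per library were tested with edgeR 4.0.16 (TMM, filterByExpr, quasi-likelihood, Benjamini-Hochberg), with DESeq2 1.42.0 and limma 3.58.1 as alternatives, after tests on simulated data. Levels in CPM are pooled counts of the cells of a library. The rule for named genes took the largest changes past the threshold, the 3 highest members of each list, all rule genes and the αV and TGF-β genes. Some other list members (such as Bnc1, Cd55, Lama5, Tcf21 and Zeb2) and Maf and Lgals1 were picked once values were known. The members and gene lists were chosen with earlier results of these data known.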

Additional observations from a re-analysis of the deposited data

How the results depend on the processing

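The count of genes past the treatment test, 14, moved with most settings: 0 without the batch term, 25 with the replicate block in place of batch, 2 with DESeq2, 10 with limma voom, 29 with DESeq2 size factors, 25 with no filter on low counts, 15 and 34 with looser and stricter cell filters, 34 with at least 3 markers, 0 with at least 1 cell per library and 0 with positive markers alone (489 at an unadjusted p under 0.05), and 11 to 54 when 1 library was left out (54 without DMSO 1, 34 without DMSO 2, 11 without CWHM-12 2, 27 without CWHM-12 3). No fit was possible without DMSO 3. Of the 14 genes, 10 were kept with the replicate block, 4 with voom and 1 with DESeq2. Same-numbered libraries did not deviate together (correlations -0.029, -0.015 and -0.005 over 5585 genes). Pairs of the same batch did not either (-0.029, -0.008, -0.028 and -0.005). With 3 libraries per group, this check cannot tell whether the replicate numbers pair libraries.

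Without the library block, 2093 genes passed against stellate cells and 2276 against cholangiocytes. Log2 fold changes of treatment that turned were, with positive markers alone, Enpp2 -0.66, Igfbp5 -0.38, Lgals1 -0.14, Itgav 0.16, Vcam1 0.26 and Col3a1 -0.52. With at least 1 cell per library they were Bche 0.82, Igfbp5 -0.72 and Itgav 0.0392. With 1 library left out, Itgav lay between -1.22 (without CWHM-12 3) and 0.21 (without CWHM-12 2). Itgb1 was at 0.0142 without the batch term, 0.0186 with the replicate block and 0.00645 with the stricter cell filter. The cause was not tested. The difference in share stayed negative in every setting run, from -0.604 to -0.284 with 1 library left out and -0.509 with a 3% hepatocyte limit, a setting chosen after seeing the data. With 6 to 56 cells in a library, 1 cell could hold most of a gene's UMIs, as 81.4% of those of Ltbp2 in CWHM-12 1.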
